A study of Mus musculus with 6 samples.

Results

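The genes described here make and load the molecules that display peptides to T cells in the corpus, the main acid-producing region of the mouse stomach. They were taken from the deposited expression table by name. In 33 rows the symbol begins with H2-, the mouse name of the major histocompatibility complex (MHC). The 15 further rows are for β2-microglobulin, peptide transport and loading, the immunoproteasome, the invariant chain, 2 regulators of transcription and the MHC-like genes Cd1d1 and Mr1. These 48 of 18988 rows held 34 genes of the class I pathway, 11 of the class II pathway and 3 of neither. The tested libraries came from 3 mice of the genotype PGC;Ras;APC FF (replicates 4 to 6, called PGC mice), and the reference libraries from 3 mice of the genotype Ras;APC FF (replicates 1 to 3, called control mice), so both groups carried the Ras and APC FF components. Every library was made from whole corpus tissue of 1 mouse on a C57BL/6 background. The labels spell out neither PGC nor FF, and name no Cre driver, age, sex or induction scheme.

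MHC class I molecules consist of a polymorphic heavy chain and β2-microglobulin. They carry peptides that the proteasome cuts in the cytosol and the TAP transporter moves into the endoplasmic reticulum, and nearly all nucleated cells display them. MHC class II molecules are pairs of an α and a β chain that travel with the invariant chain to endosomes, where H2-DM helps to exchange its remnant for a peptide. Dendritic cells, macrophages and B cells make class II constitutively, and epithelial cells can be induced to make it by interferon gamma.

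Levels are given as FPKM, in which fragments are divided by the length of the gene and the library total, so that genes may be compared with each other. Tests used log2(FPKM + 1) of the 11857 genes with at least 1 FPKM in at least 3 libraries, in a limma fit over all of these genes. Changes are PGC minus control on that log2 scale, which understates the change of low genes. Corpus genes were present in all libraries: the pit cell gene Tff1 was at 34865 FPKM or more, and Atp4a, of the parietal cell proton pump, was at 1768, 2356 and 428 FPKM in PGC mice, against 2805, 2884 and 2353 FPKM in control mice. Replicate 6 stood apart, with log2 values that correlated with the controls at r = 0.904 to 0.909 across genes, against 0.965 to 0.981 for replicates 4 and 5. Control replicate 3 reads as male (Eif2s3y at 13.2 FPKM, Xist at 0) and the other libraries as female. Tested genes as a whole were shifted, with a median of 0.26 (log2) on the FPKM scale and of -0.0027 after median-of-ratios scaling, and each class is set beside that shift.

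No antigen presentation gene passed the threshold when all 6 libraries had equal weight (limma, Benjamini-Hochberg adjusted p under 0.05 over all tested genes). With limma array weights, which gave replicate 6 a weight of 0.126, 9 members passed (the 6 tested class II members, H2-K1, H2-D1 and H2-M2), all higher, as did 26.6% of all tested genes. In the equal-weight fit, 31 of the 48 members were tested, 0 were called in either direction and 11 had an unadjusted limma p under 0.05. Among all tested genes, 0.152% were called and 35.4% had an unadjusted p under 0.05. The smallest adjusted limma p among members was 0.085, for H2-M2. Levels nevertheless separated: in 16 of the 31 tested members each PGC library lay above each control library, which was also true of 42.7% of all tested genes. Split by pathway, that held for 6 of 6 class II members and 10 of 23 class I members, so the class I share was near that of all genes. H2-M2 passed the filter through its PGC values alone and had to separate, and the other 30 tested members did not pass that way.

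The class II chains stood higher in PGC corpus than in control corpus. The 3 expressed chain genes lie close together on chromosome 17 of GRCm38 (mm10): H2-Ab1 (34257689 to 34269419, plus strand), H2-Aa (34282744 to 34287823, minus strand) and H2-Eb1 (34305867 to 34316674, plus strand). H2-Ab1, which encodes the β chain of the I-A molecule, was at 115, 81.6 and 325 FPKM in PGC replicates 4 to 6, against 58.6, 49.0 and 56.7 FPKM in control replicates 1 to 3. All 3 PGC values exceeded the controls, replicate 5 by the least and replicate 6 by the most. The mean was 174 ± 132 FPKM in PGC mice and 54.8 ± 5.03 FPKM in control mice (SD, n = 3 each), a log2 change of 1.39 ± 0.45 (SE) with a limma adjusted p of 0.0959. H2-Aa, the matching α chain, was at 106, 78.8 and 306 FPKM in PGC mice, against 59.4, 51.5 and 66.9 FPKM in control mice (log2 change 1.20 ± 0.45, limma adjusted p = 0.113). H2-Eb1, the β chain of the I-E molecule, was at 49.4, 35.7 and 134 FPKM in PGC mice, against 27.1, 25.2 and 26.8 FPKM in control mice (log2 change 1.20 ± 0.42, limma adjusted p = 0.105). The order of the libraries was the same for all 3 chains within the PGC group, with replicate 6 highest and replicate 5 lowest. H2-Eb2, a further β chain gene, stayed at or below 0.14 FPKM in every library and was not tested. No row for an α chain of I-E was among the members, so the H2-Eb1 values do not show that the I-E molecule was made. In whole tissue, more cells of a type and more RNA per cell cannot be told apart.

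The partners that load class II followed the chains closely. Cd74, the invariant chain, was at 340.4, 236 and 1079 FPKM in PGC mice, against 174, 151 and 158 FPKM in control mice. It was the most abundant class II transcript in every library, with means of 552 ± 459.7 FPKM in PGC mice and 161 ± 11.9 FPKM in control mice (SD, n = 3 each, log2 change 1.46 ± 0.50 SE, limma adjusted p = 0.101). H2-DMb1 and H2-DMa encode chains of the peptide exchange factor H2-DM. H2-DMb1 was at 14.2, 11.7 and 52.1 FPKM in PGC mice, against 7.77, 6.19 and 7.15 FPKM in control mice (log2 change 1.44 ± 0.48, limma adjusted p = 0.0986). H2-DMa was at 7.29, 4.67 and 20.0 FPKM in PGC mice, against 3.75, 2.70 and 3.26 FPKM in control mice (log2 change 1.24 ± 0.43, limma adjusted p = 0.102). Neither overlapped between the groups. H2-DMb1 shares 22.7% of its 50-base transcript windows with its neighbour H2-DMb2, so that reads of these genes could be assigned to either.

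Several low class II members were also highest in replicate 6 and lowest, within the PGC mice, in replicate 5. H2-DMb2 was at 1.48, 0.80 and 2.35 FPKM in PGC mice, against 0.75, 0.78 and 0.44 FPKM in control mice. H2-Oa, a chain of H2-DO, which restrains H2-DM, was at 0.77, 0.48 and 1.68 FPKM in PGC mice, against 0.39, 0.28 and 0.03 FPKM in control mice. Ciita, the class II transactivator, was at 0.55, 0.26 and 1.33 FPKM in PGC mice, against 0.22, 0.24 and 0.25 FPKM in control mice. In replicate 5 the H2-DMb2 and Ciita values lay just above the highest control, and neither gene reached the filter. H2-Ob, the other H2-DO chain, overlapped between the groups at 0.29 FPKM or less.

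Stretches are shown upstream of H2-Aa, H2-Eb1 and H2-DMb1, which separated the groups with the same order of PGC libraries. H2-DMa did so too and had a window, but its stretch is not shown. RefSeq windows from 250 bases before to 50 after the annotated start (GRCm38.p6) were given for 31 of the 48 members and were searched on both strands for motifs chosen after the windows had been read. These were GATTGG (the core of the Y box, which the factor NF-Y binds), TGACG (the core of the X2 box), AANNGAAA (the interferon regulatory factor motif) and GGGATTCC (a κB motif). GATTGG or its reverse was found in 8 of 8 class II genes with a window and in 16.1% of all 32851 windows. A gene was counted if any of its windows matched, whereas the share is of single windows, so these are unlike units. The first-listed window of H2-DMa held no match, and only class II stretches with a match are shown. The stretches printed are first-listed windows. The capitals below mark every match. In H2-Aa they are AAGAGAAA, the overlapping TGACG and CGTCA, and GATTGG, which begins 49 bases before the start. Windows are on chromosome 17, at chr17:34287774-34288073 (minus strand) for H2-Aa, chr17:34305617-34305916 (plus strand) for H2-Eb1 and chr17:34152941-34153240 (plus strand) for H2-DMb1, each 5′ to 3′.
H2-Aa: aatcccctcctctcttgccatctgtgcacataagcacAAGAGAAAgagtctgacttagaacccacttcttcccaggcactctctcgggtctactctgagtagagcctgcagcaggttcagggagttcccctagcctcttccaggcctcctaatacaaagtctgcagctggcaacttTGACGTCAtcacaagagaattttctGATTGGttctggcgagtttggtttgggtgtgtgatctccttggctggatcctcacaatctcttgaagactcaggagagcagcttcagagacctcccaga
H2-Eb1: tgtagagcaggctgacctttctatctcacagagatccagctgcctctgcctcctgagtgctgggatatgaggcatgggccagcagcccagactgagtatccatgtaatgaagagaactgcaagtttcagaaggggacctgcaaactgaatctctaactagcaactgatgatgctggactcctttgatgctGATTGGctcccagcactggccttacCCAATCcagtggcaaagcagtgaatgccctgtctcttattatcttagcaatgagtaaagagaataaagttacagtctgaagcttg
H2-DMb1: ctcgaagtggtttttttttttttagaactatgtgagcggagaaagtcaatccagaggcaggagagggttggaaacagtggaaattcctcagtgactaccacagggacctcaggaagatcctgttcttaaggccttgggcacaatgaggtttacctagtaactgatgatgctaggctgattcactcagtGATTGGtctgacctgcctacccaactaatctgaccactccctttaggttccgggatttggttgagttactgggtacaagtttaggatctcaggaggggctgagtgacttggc

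**Figure D1:**
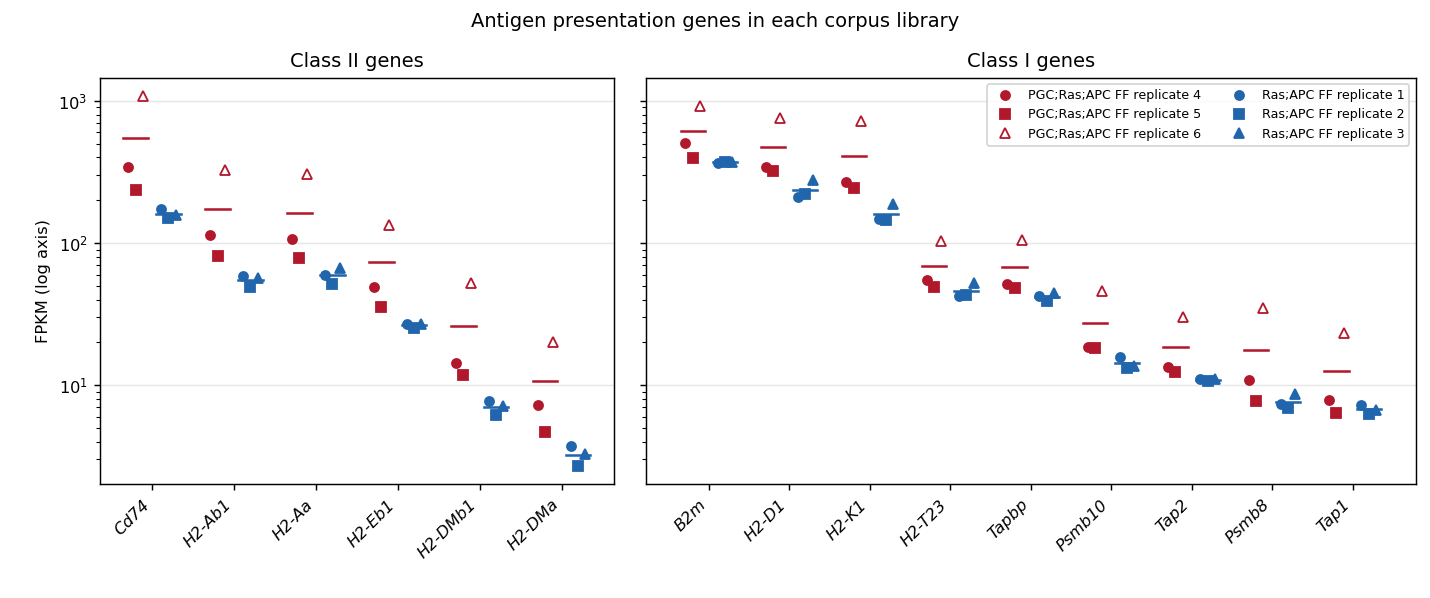
FPKM on a log axis of 6 class II genes (left panel) and 9 class I genes (right panel), with a point for each library and a bar for the group mean, PGC mice in red to the left of control mice in blue. Replicate 6 (open triangle) is the highest library for every gene shown, and replicates 4 and 5 lie above all controls for the 6 class II genes but not for all class I genes, with Tap1 at 6.33 FPKM in replicate 5 and up to 7.25 FPKM in control mice.

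The classical class I heavy chains were the most abundant heavy chains and stood higher in PGC corpus. H2-K1 (chromosome 17, 33996017 to 34000347, minus strand) was at 270.5, 245 and 722 FPKM in PGC mice, against 148, 146 and 187 FPKM in control mice. The mean was 412 ± 268 FPKM in PGC mice and 160.5 ± 22.9 FPKM in control mice (SD, n = 3 each), a log2 change of 1.18 ± 0.39 (SE) with a limma adjusted p of 0.0976. H2-D1 (chromosome 17, 35262730 to 35267499, plus strand) was at 344, 324 and 762.1 FPKM in PGC mice, against 211, 221 and 278 FPKM in control mice (log2 change 0.90 ± 0.33, limma adjusted p = 0.111). For both genes all PGC values exceeded all control values, and replicate 6 was highest. H2-K1 and H2-D1 share 9.63% and 12.8% of their 50-base transcript windows with other genes, most often with an H2-Q gene. H2-L, a classical locus that the b haplotype of C57BL/6 lacks, was listed at 0 in 4 libraries and at 0.06 FPKM or less in the others.

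B2m, the light chain shared by class I molecules (chromosome 2, 122147686 to 122153083, plus strand), had a smaller log2 change than H2-K1 and H2-D1. It was at 508 FPKM in replicate 4, 399 in replicate 5 and 926 in replicate 6 of the PGC mice, against 364, 370.4 and 374 FPKM in control mice. The 3 control libraries lay close together, and replicate 5 lay only just above them (log2 change 0.63 ± 0.30 SE, limma adjusted p = 0.168). The ratio of H2-K1 to B2m within a library was 0.532, 0.614 and 0.779 in PGC mice, against 0.408, 0.395 and 0.50 in control mice. For H2-K1 over H2-D1 the ratios were 0.787, 0.756 and 0.947 in PGC mice, against 0.704, 0.660 and 0.673 in control mice. Both ratios separated the groups, and each gave an exact two-sided permutation p of 0.1, the smallest that 3 against 3 mice allow (0.32 after adjustment over the 16 ratios computed). By contrast, H2-D1 over B2m overlapped, at 0.677, 0.812 and 0.823 in PGC mice, against 0.580, 0.597 and 0.743 in control mice.

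Windows at the class I genes are shown for comparison with those of class II. As above, a gene was counted for a match in any of its windows, and the shares are of single windows. GATTGG was in 11 of 21 class I genes with a window and TGACG in 11, against 1 of 8 class II genes and 20.8% of all windows for TGACG. Only these exact letters were searched for, so a variant of the X2 core was not counted. The interferon regulatory factor motif was in 14 of 21 class I genes and 4 of 8 class II genes, against 23.9% of all windows. GGGATTCC was in 4 class I genes, 0 class II genes and 1.06% of all windows. In H2-K1 and H2-D1 the capitals mark, in the same order, the κB motif, the interferon regulatory factor motif on the opposite strand, the X2 core and the Y box core on the opposite strand. In B2m they mark the interferon regulatory factor motif, the X2 core, the Y box core and the X2 core on the opposite strand, and in Tap1 the Y box core on the opposite strand and the X2 core. The Tap1 and Psmb9 genes point away from each other, and their windows share 275 bases, so that the Tap1 stretch overlaps that of Psmb9. Windows lie at chr17:34000298-34000597 (minus strand) for H2-K1, chr17:35262844-35263143 (plus strand) for H2-D1, chr2:122147437-122147736 (plus strand) for B2m and chr17:34187306-34187605 (plus strand) for Tap1.
H2-K1: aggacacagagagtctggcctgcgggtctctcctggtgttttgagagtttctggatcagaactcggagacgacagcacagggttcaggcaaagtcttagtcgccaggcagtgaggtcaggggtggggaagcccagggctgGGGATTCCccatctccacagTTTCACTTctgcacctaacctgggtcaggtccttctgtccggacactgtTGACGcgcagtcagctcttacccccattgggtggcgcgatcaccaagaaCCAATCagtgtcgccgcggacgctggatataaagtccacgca
H2-D1: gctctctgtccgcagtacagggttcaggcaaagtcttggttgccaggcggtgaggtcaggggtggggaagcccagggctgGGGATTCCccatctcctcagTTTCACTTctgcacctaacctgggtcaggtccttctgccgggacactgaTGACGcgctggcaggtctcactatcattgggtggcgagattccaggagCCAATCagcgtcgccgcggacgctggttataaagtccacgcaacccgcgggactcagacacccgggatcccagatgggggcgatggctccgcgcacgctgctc
B2m: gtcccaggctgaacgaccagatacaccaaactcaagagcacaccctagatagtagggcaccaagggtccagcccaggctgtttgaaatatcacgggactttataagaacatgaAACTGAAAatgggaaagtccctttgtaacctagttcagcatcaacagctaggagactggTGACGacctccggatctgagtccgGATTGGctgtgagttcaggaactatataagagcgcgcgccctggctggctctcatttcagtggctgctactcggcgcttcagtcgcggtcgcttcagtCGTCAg
Tap1: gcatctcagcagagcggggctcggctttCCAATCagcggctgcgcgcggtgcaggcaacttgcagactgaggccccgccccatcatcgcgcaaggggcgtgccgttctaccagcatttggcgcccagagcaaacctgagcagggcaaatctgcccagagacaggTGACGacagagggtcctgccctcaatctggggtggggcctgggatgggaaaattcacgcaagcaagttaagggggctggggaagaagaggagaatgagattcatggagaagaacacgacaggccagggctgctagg

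Peptide transport and loading genes were higher mainly in replicate 6. Tapbp, tapasin, which bridges TAP and class I, was at 51.8, 48.5 and 104.7 FPKM in PGC mice, against 42.1, 38.9 and 44.5 FPKM in control mice (log2 change 0.61 ± 0.28 SE, limma adjusted p = 0.158). Tap2, a subunit of the TAP transporter, was at 13.4, 12.4 and 30.1 FPKM in PGC mice, against 11.01, 10.8 and 11.01 FPKM in control mice (log2 change 0.60 ± 0.30, limma adjusted p = 0.180). Tap1, the other subunit, was at 7.86, 6.33 and 23.4 FPKM in PGC mice, against 7.25, 6.30 and 6.67 FPKM in control mice, so replicate 5 fell among the controls. Tapbpl, a tapasin-related peptide editor, was at 5.39, 4.75 and 10.7 FPKM in PGC mice, against 4.32, 4.02 and 3.22 FPKM in control mice (log2 change 0.64 ± 0.27, limma adjusted p = 0.131). Erap1, which trims peptides in the endoplasmic reticulum, was at 6.84, 6.75 and 9.46 FPKM in PGC mice, against 6.12, 6.38 and 4.55 FPKM in control mice. Except for Tap1, these genes did not overlap between the groups, but outside replicate 6 the gaps were small. Tapbp shares 20.3% of its 50-base windows with the antisense gene Gm19412, and the libraries are not stated to keep strand. Calr3, a calreticulin relative known from testis, was at 1.37, 1.41 and 1.15 FPKM in PGC mice and 1.28, 1.72 and 1.31 FPKM in control mice, and was the only tested class I member with a negative log2 change (-0.074).

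The immunoproteasome subunits, which replace their constitutive counterparts under interferon, were also highest in replicate 6. Psmb8 was at 10.8, 7.71 and 34.8 FPKM in PGC mice, against 7.33, 6.89 and 8.70 FPKM in control mice (log2 change 0.84 ± 0.46 SE, limma adjusted p = 0.215). Psmb9 was at 10.97, 10.9 and 33.0 FPKM in PGC mice, against 9.29, 9.55 and 12.1 FPKM in control mice. Psmb10 was at 18.5, 18.1 and 45.9 FPKM in PGC mice, against 15.8, 13.3 and 13.5 FPKM in control mice (log2 change 0.77 ± 0.33, limma adjusted p = 0.140). Psmb10 alone of these 3 separated the groups. Set against the subunit it replaces, Psmb8 over Psmb5 was 0.0889, 0.0611 and 0.225 in PGC mice, against 0.0839, 0.0807 and 0.0814 in control mice. For Psmb9 over Psmb6 the ratios were 0.117, 0.117 and 0.264 in PGC mice, against 0.135, 0.138 and 0.152 in control mice. Psmb10 over Psmb7 was 0.228, 0.222 and 0.417 in PGC mice, against 0.247, 0.224 and 0.166 in control mice. Replicate 6 was the highest library in each of these ratios. Replicates 4 and 5 lay below the controls for Psmb9 over Psmb6 and within their range for Psmb10 over Psmb7, while for Psmb8 over Psmb5 replicate 4 lay above the controls and replicate 5 below them (exact two-sided permutation p = 1, 0.5 and 0.7). Nlrc5, the class I transactivator, was at 0.34, 0.26 and 1.24 FPKM in PGC mice, against 0.37, 0.32 and 0.36 FPKM in control mice, and did not reach the filter.

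**Figure D2:**
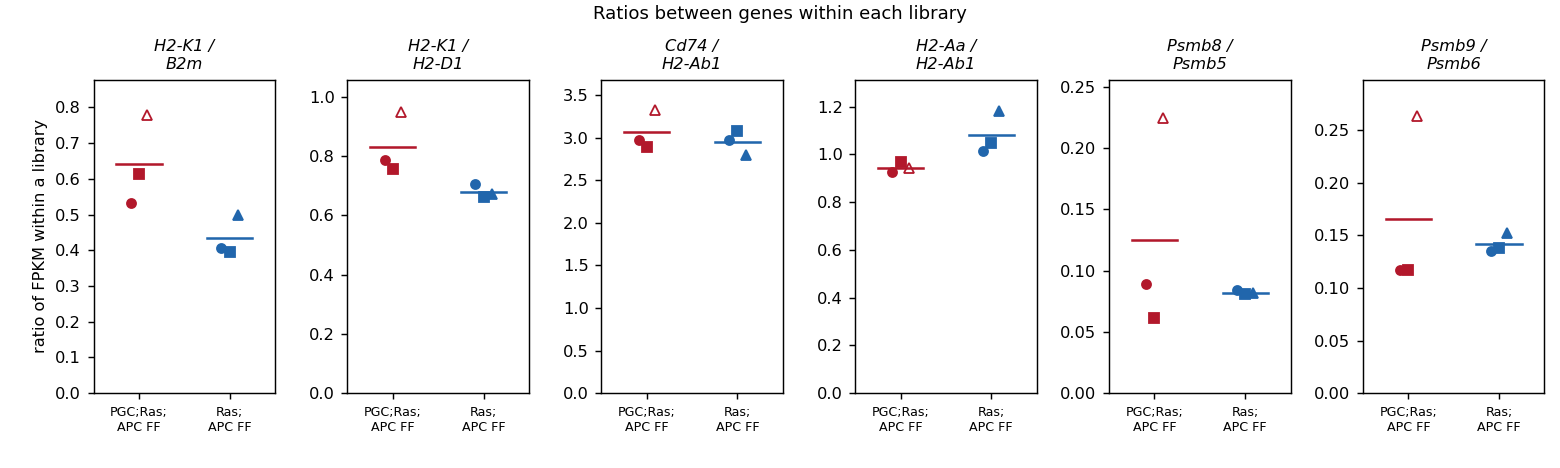
Ratio of the FPKM of paired genes within each library, on linear axes that start at 0, with PGC mice in red to the left of control mice in blue, points for libraries, open triangles for replicate 6 and bars for means. H2-K1 over B2m and over H2-D1 separates the groups, Cd74 over H2-Ab1 overlaps at 2.89 to 3.32 in PGC mice and 2.79 to 3.07 in control mice, and the immunoproteasome ratios are high in replicate 6 alone.

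Among nonclassical and related class I heavy chains, 11 of 20 rows were tested, all 11 had a positive log2 change and 2 separated the groups, beside 80.6% and 42.7% of all tested genes. H2-Q8 and H2-Q9 had negative log2 changes without replicate 6 (-0.28 and -0.081). H2-T23, which encodes Qa-1, a ligand of receptors on natural killer cells, was at 54.9, 48.9 and 103.5 FPKM in PGC mice, against 42.4, 42.9 and 52.6 FPKM in control mice (log2 change 0.50 ± 0.27 SE, limma adjusted p = 0.211). H2-T22, a ligand of some γδ T cell receptors, was at 20.9, 20.9 and 37.8 FPKM in PGC mice, against 18.0, 19.2 and 24.8 FPKM in control mice (log2 change 0.31 on the FPKM scale, limma adjusted p = 0.369, but -0.019 under quantile normalization and -0.048 when the top 50 genes were dropped from the library total). Both overlapped between the groups. H2-T22 shares 53.5% of its 50-base windows with other genes, mostly H2-T10.

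The H2-Q genes were high in replicate 6 and close to the controls elsewhere. H2-Q4 was at 17.4, 16.4 and 53.8 FPKM in PGC mice, against 16.4, 14.5 and 13.4 FPKM in control mice (log2 change 0.73 ± 0.41 SE, limma adjusted p = 0.222). H2-Q7, a gene of the Qa-2 antigen, was at 3.43, 3.29 and 26.6 FPKM in PGC mice, against 3.55, 2.11 and 3.43 FPKM in control mice. H2-Q8 was at 1.12, 2.02 and 12.7 FPKM in PGC mice, against 1.65, 1.45 and 3.48 FPKM in control mice, with a log2 change of 0.53. H2-Q6, H2-Q7 and H2-Q4 share 35.0%, 26.5% and 36.4% of their 50-base windows with other genes, so single H2-Q values are uncertain. H2-M2, a nonclassical gene, differed in pattern: it was at 2.29, 1.59 and 1.88 FPKM in PGC mice, against 0.97, 0.62 and 0.92 FPKM in control mice, with replicate 4 highest (log2 change 0.67 ± 0.15, limma adjusted p = 0.085). H2-M2 passed the filter only through the PGC mice, so its separation was required by the filter. The 9 untested rows of this group were at 1.81 FPKM or less, among them H2-T24, at 0.57, 0.47 and 0.46 FPKM in PGC mice and 0.78, 0.61 and 0.70 FPKM in control mice. H2-Bl was listed at 0 in the 3 PGC libraries and at 0.10, 0.05 and 0.02 FPKM in control mice.

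Neither tested member outside both pathways separated the groups. H2-Ke6, a hydroxysteroid dehydrogenase gene of the H2 region with no role in presentation, was at 30.3, 30.5 and 29.0 FPKM in PGC mice, against 26.9, 26.6 and 30.0 FPKM in control mice, with a log2 change of 0.10 that was -0.20 after median-of-ratios scaling. It shares 70.5% of its 50-base transcript windows with the gene Gm20427, so its values are uncertain. Mr1, which presents vitamin B metabolites to MAIT cells, was at 4.08, 3.74 and 4.76 FPKM in PGC mice, against 3.91, 3.76 and 3.71 FPKM in control mice. Cd1d1, which presents lipids to natural killer T cells and was not tested, was high in replicate 6 alone, at 0.56, 0.47 and 1.22 FPKM in PGC mice, against 0.53, 0.48 and 0.44 FPKM in control mice.

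**Figure D3:**
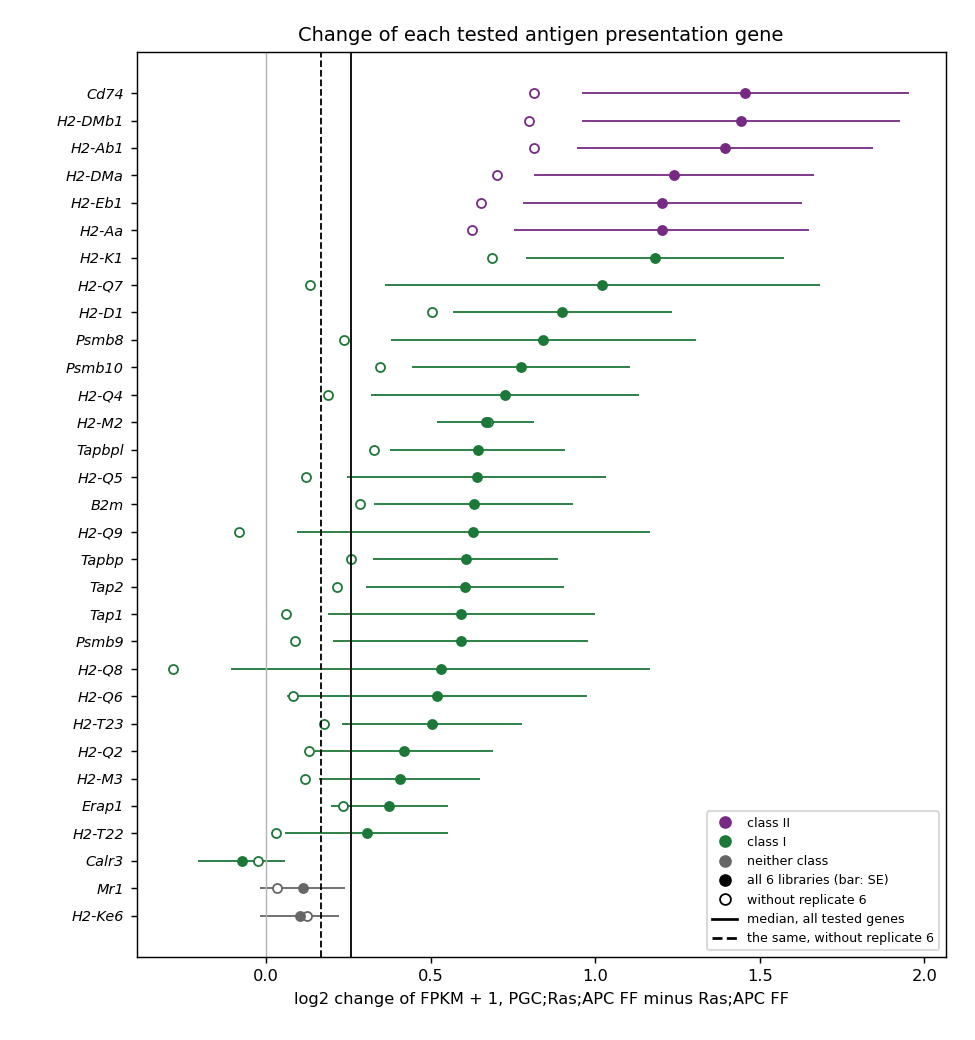
The log2 change of FPKM + 1 (PGC minus control) of the 31 tested members, with filled points and SE bars for all 6 libraries and open points without replicate 6. Class II members (purple) lie between 1.20 and 1.46 and class I members (green) between -0.074 and 1.18, and the solid and dashed lines mark the median of all tested genes at 0.26 and, without replicate 6, at 0.17.

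Class II members had a higher median change than class I members. The median log2 change was 1.32 over the 6 tested class II members (range 1.20 to 1.46) and 0.61 over the 23 tested class I members (range -0.074 to 1.18), beside 0.26 over all tested genes. Library by library, the class II median relative to the mean of the controls was 0.95 in replicate 4, 0.49 in replicate 5 and 2.45 in replicate 6. For class I these medians were 0.26, 0.11 and 1.39, and for all genes 0.18, 0.16 and 0.45. In replicates 4 and 5 class I thus lay close to all genes, while class II lay above them in each PGC library. After median-of-ratios scaling the class II median was 1.03 and the class I median 0.31. On that scale all 6 class II members still separated the groups, as did 3 of 23 class I members (H2-K1, H2-D1 and H2-M2) and 18.0% of all tested genes. Within class II, Cd74 over H2-Ab1 was 2.97, 2.89 and 3.32 in PGC mice, against 2.97, 3.07 and 2.79 in control mice. H2-Aa over H2-Ab1 was 0.925, 0.966 and 0.941 in PGC mice, against 1.01, 1.05 and 1.18 in control mice (exact two-sided permutation p = 0.1).

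The calls depended on replicate 6. With replicate 6 left out and the same genes tested, 6 of 31 members rose, with limma adjusted p of 0.0268 for H2-DMb1, 0.0357 for H2-Ab1, 0.0389 for Cd74, 0.0397 for H2-K1, 0.0414 for H2-Eb1 and 0.0425 for H2-M2. That set held 4 of 6 class II members and 2 of 23 class I members, and 8.11% of all tested genes rose in the same fit. H2-M2 was in it only because the filter used all 6 libraries. With the filter redone on the 5 libraries it was not tested, and the other 5 members passed, beside 7.17% of all genes. The log2 changes there were 0.80 for H2-DMb1, 0.81 for H2-Ab1 and Cd74, 0.69 for H2-K1, 0.65 for H2-Eb1 and 0.67 for H2-M2. H2-Aa and H2-DMa, at 0.63 and 0.70, missed the threshold (limma adjusted p = 0.0564 and 0.0537). Without that library the median change was 0.75 for class II and 0.18 for class I, beside 0.17 for all genes, and the groups were separate for 6 and 10 members, beside 44.2% of all genes. Leaving out replicate 5 in place of 6, with the filter redone and 30 members tested, gave 4 members that rose, all class II (Cd74, H2-Ab1, H2-DMa and H2-Eb1, limma adjusted p from 0.0455 to 0.04996), beside 3.54% of all tested genes. Without control replicate 1, 2 or 3, or without replicate 4, 0 members passed.

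**Figure D4:**
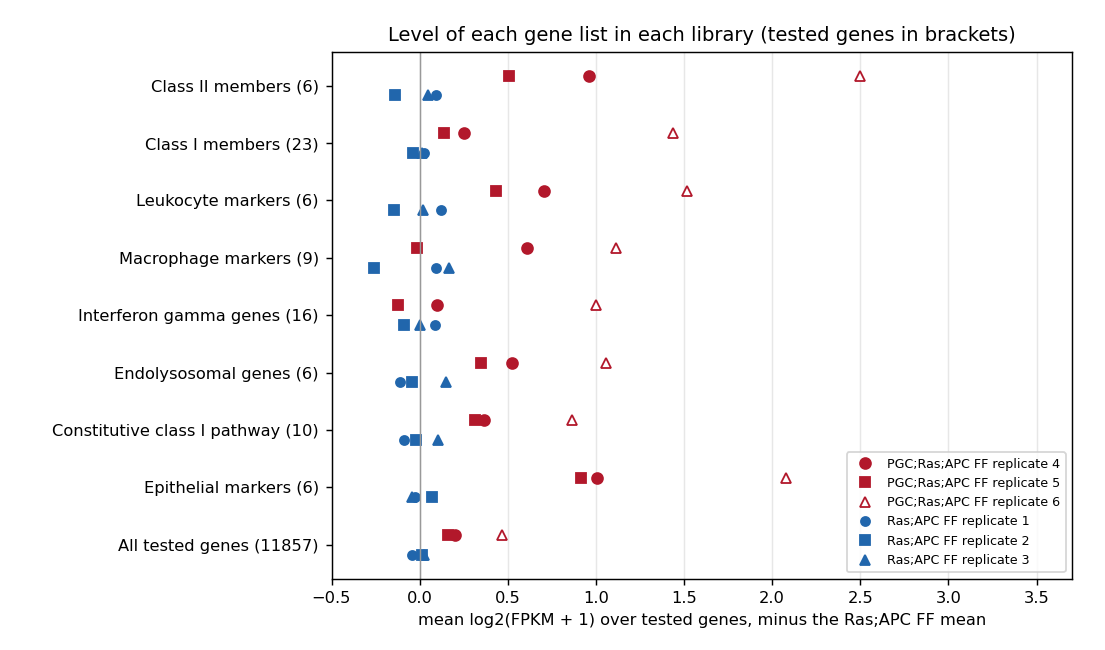
Mean log2(FPKM + 1) of the tested genes of each list in each library, minus the mean of the control mice, with PGC libraries in red above control libraries in blue. Class II members stand at 0.96, 0.51 and 2.50 in replicates 4 to 6 and class I members at 0.25, 0.14 and 1.44, and interferon gamma genes are above the controls in replicate 6 at 1.00 while replicate 5 is at -0.12.

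Markers of leukocytes and of epithelium were also higher in PGC corpus. The 6 general leukocyte markers summed to 113, 95.8 and 204 FPKM in PGC mice, against 77.9, 68.7 and 71.4 FPKM in control mice, and 0 of 6 tested passed. Their median log2 change was 0.98 and 5 of 6 separated the groups, beside 0.26 and 42.7% for all tested genes. Lcp1 overlapped and was a large part of these sums, at 38.2, 39.6 and 40.7 FPKM in PGC mice, against 37.8, 39.2 and 34.7 FPKM in control mice. Ptprc, which encodes CD45, was at 1.86, 1.36 and 3.31 FPKM in PGC mice, against 1.01, 0.93 and 1.06 FPKM in control mice. H2-Ab1 over Ptprc was 61.6, 60.0 and 98.2 in PGC mice, against 58.0, 52.7 and 53.5 in control mice (exact two-sided permutation p = 0.1). H2-K1 over Ptprc overlapped, at 145, 179.9 and 218 in PGC mice, against 147, 157 and 176 in control mice (exact two-sided permutation p = 0.5). Ptprc was the only leukocyte marker used as a denominator. Its log2 change of 0.62 was above that of Lcp1 (0.084). It was below those of Cd52 (1.42), Coro1a (1.22), Laptm5 (1.06) and Cd53 (0.91), to which no ratio was computed. That scale understates the change of a gene as low as Ptprc. As a ratio of group mean FPKM, PGC over control, Ptprc was at 2.18 and Lcp1 at 1.06. Laptm5 was at 2.28, Cd53 at 2.73, Coro1a at 2.88 and Cd52 at 3.16. Of 9 macrophage markers, all tested, 0 passed and 3 separated the groups (C1qa, C1qb and C1qc), beside 42.7% of all tested genes. The list summed to 282, 169.9 and 483 FPKM in PGC mice, against 158, 121 and 207 FPKM in control mice. C1qa, a complement subunit of tissue macrophages, was at 56.4, 41.1 and 107 FPKM in PGC mice, against 35.9, 27.4 and 37.0 FPKM in control mice.

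Dendritic, B and T cell markers were low. Of 8 dendritic cell markers only Itgax was tested, at 3.07, 1.63 and 6.10 FPKM in PGC mice, against 1.23, 0.78 and 0.64 FPKM in control mice. The list summed to 4.18 to 11.7 FPKM in PGC mice and 2.55 to 4.49 FPKM in control mice. Of the untested markers, Flt3 and Ccr7 lay above all controls in each PGC library, and Zbtb46, Xcr1, Clec9a, Batf3 and Cd209a overlapped. Cd209a was at 0.52, 0.45 and 0.12 FPKM in PGC mice, against 1.00, 0.48 and 0.46 FPKM in control mice. Of 8 B cell markers only Cd79a was tested, at 4.06, 1.88 and 5.47 FPKM in PGC mice, against 0.71, 1.02 and 0.84 FPKM in control mice. That list summed to 3.20 to 8.01 FPKM in PGC mice and 1.57 to 2.08 FPKM in control mice, while Ms4a1 and Pax5 stayed at or below 0.09 FPKM and no marker was at 0 in every library. T and natural killer cell markers (2 tested, 0 passed) summed to 3.71 to 15.3 FPKM in PGC mice and 3.54 to 3.94 FPKM in control mice. Epithelial markers stood higher (6 of 6 separated the groups, beside 42.7% of all tested genes, and 0 passed). Cldn7 had to separate because it reached the filter through PGC mice alone. Krt8 was at 1587, 1658 and 2118 FPKM in PGC mice, against 887, 1040.1 and 1123 FPKM in control mice. Smooth muscle markers were lower in all PGC libraries than in every control library (6 of 6, beside 649 of the 11857 tested genes). Of these markers 0 passed, and their median log2 change was -1.28. Parietal cell markers (5 tested, 0 passed) summed to 7851, 8667 and 1724 FPKM in PGC mice, against 9685, 9366 and 7794 FPKM in control mice. Gif is on this list and on the chief cell list. It was at 2890, 2382 and 558 FPKM in PGC mice, against 2177, 1939 and 1271 FPKM in control mice. Atp4b and Kcne2 lay below every control in each PGC library, and Atp4a, Slc26a7 and Gif overlapped. Chief cell markers (5 tested, 0 passed) summed to 106107, 94555 and 19903 FPKM in PGC mice, against 206576, 179076 and 155813 FPKM in control mice. Most of each sum was Pgc, at 87455, 78757 and 16059 FPKM in PGC mice, against 194208, 170504 and 140325 FPKM in control mice. Gif, Bhlha15, Pga5 and Chia1 lay above the control mean in replicates 4 and 5, and Pga5 above every control in each PGC library. The mean log2 level of the list, minus the control mean, was 0.33, 0.17 and -1.50 in replicates 4 to 6. Replicate 6, the highest library for 28 of the 31 tested members and for 8115 of the 11857 tested genes, was thus the lowest for both of these lists. The part of these cell types in the antigen presentation values was not tested.

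Of the other genes of the pathway none passed the test. Their library medians in replicates 4 and 5 were 0.41 and 0.39 for the endolysosomal genes and 0.35 and 0.28 for the constitutive class I genes, above the class I members, while in replicate 6 both lists, at 0.83 and 0.87, lay below the class I members. Of 6 endolysosomal class II genes 0 passed and 5 separated the groups, beside 42.7% of all tested genes (median log2 change 0.54). Ctss, cathepsin S, which trims the invariant chain, was at 37.7, 23.7 and 87.6 FPKM in PGC mice, against 17.4, 16.5 and 20.1 FPKM in control mice (log2 change 1.22, limma adjusted p = 0.0986). Ifi30, a thiol reductase of endosomes, was at 245, 281 and 269.98 FPKM in PGC mice, against 175, 207 and 236 FPKM in control mice. Among 10 constitutive class I pathway genes 0 passed (median 0.51), with the chaperone Calr at 495, 456 and 649 FPKM in PGC mice, against 299, 297 and 303 FPKM in control mice. Of 7 class II transcription factor genes 0 passed (median 0.31), and the X box factor Rfx5 was at 2.19, 2.20 and 3.61 FPKM in PGC mice, against 1.77, 1.77 and 1.47 FPKM in control mice.

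Interferon gamma response genes differed in direction among themselves in replicates 4 and 5. Gbp3 and Iigp1, chosen after their values were seen, lay below every control in both libraries, with log2 differences from the control mean of -0.54 and -0.78 for Gbp3 and -0.49 and -0.67 for Iigp1. Cxcl10, a chemokine gene chosen in the same way, lay above every control in both, with differences of 0.83 and 0.12. Of 16 tested, 0 passed and 5 separated the groups, beside 42.7% of all tested genes (median log2 change 0.27, beside 0.26 over all genes). All 16 were highest in replicate 6, as were 8115 of the 11857 tested genes. Ifng itself was at 0, 0 and 0.22 FPKM in PGC mice, against 0, 0.04 and 0.07 FPKM in control mice. The guanylate-binding protein gene Gbp2, chosen after its values were seen, was at 5.66, 4.17 and 15.97 FPKM in PGC mice, against 6.61, 5.97 and 6.30 FPKM in control mice. Irf1, also chosen after its values were seen, was at 15.4, 9.14 and 33.5 FPKM in PGC mice, against 10.58, 8.22 and 10.3 FPKM in control mice. Ifngr2, a receptor subunit, was at 49.0, 54.5 and 70.7 FPKM in PGC mice, against 38.2, 38.9 and 43.2 FPKM in control mice. Of the 4 co-stimulatory genes, Cd80, Cd86 and Cd40 were at 1.82 FPKM or less in every library, and only Icosl was tested, at 5.90, 4.74 and 7.25 FPKM in PGC mice, against 5.56, 5.40 and 6.12 FPKM in control mice.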

How the data were processed

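RNA of stomach corpus from 6 mice was sequenced at BGI from column-extracted total RNA, per the labels' protocols. The authors deposited FPKM with 2 decimals. STAR, featureCounts and mm10 are named per the submitters' processing notes. The sources used here do not give versions, annotation, strand setting or how FPKM was computed. Absolute read depth is unknown, so no counting interval is given. Replicates are separate mice per the labels.

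Values were tested as log2(FPKM + 1) over genes with at least 1 FPKM in at least 3 libraries (11857 genes) with limma 3.58.1 under R 4.3.3 (moderated with a mean trend, genotype as the 1 term, 4 residual degrees of freedom, two-sided, Benjamini-Hochberg over all tested genes, threshold 0.05). The fit was tested on simulated data. Members with a mean of at least 5 FPKM in a group were named with all values, others by class. Of each context list up to 4 most abundant genes could be named. Other named genes were chosen after their values were seen, including Ifng, Irf1, Gbp2, Ctss, Rfx5, the cell type markers and members below 5 FPKM. Members and lists were chosen with earlier results of these data known, and the 16 within-library ratios after values were seen. Positions come from GENCODE M21 (GRCm38, the mm10 assembly), matched by symbol for 44 of 48 members, of which 34 lie on chromosome 17. Sharing was counted as the percent of a gene's 50-base transcript windows found in transcripts of another gene, on either strand. Alternatives were 15 settings of pseudocount, scaling, filter, library weights and left-out libraries. Some genes of the lists are not reported here by name.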

Additional observations from a re-analysis of the deposited data

How the results depend on the processing

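Over 15 alternative settings, 337 of 345 values of the 23 named members kept their direction, 8 turned round and 22 passed the threshold where the fit as reported did not (8 of them with array weights, which use all 6 libraries). Class medians stayed positive, from 0.75 to 1.72 for class II and 0.18 to 0.85 for class I, while that of all genes ran from -0.052 to 0.31. H2-Ke6 turned to -0.20 with median-of-ratios scaling, -0.23 with quantile normalization and -0.25 when the top 50 genes were dropped from the total. In the last 2 settings H2-T22 turned to -0.019 and -0.048. H2-Q8 (0.53 as reported) ran from -0.28 without replicate 6, with either filter, to 1.06 without replicate 4, and turned to -0.048 with array weights (weight 0.126 for replicate 6). Array weights called 3152 genes higher, 336 lower and 9 members higher. Genes called higher, 13 in the fit as reported, were 29 with a pseudocount of 0.1 and 3 with no filter. Genes called lower, 5 as reported, were 10 with median-of-ratios scaling, quantile normalization or the reduced total. Leaving out 1 library gave 0 to 832 genes higher and 0 to 106 lower with the filter redone, 962 and 114 without replicate 6 with the filter over all 6 libraries, and 0 to 6 members higher. Adjusted limma p of Cd74 ran from 0.0162 to 0.254 over the alternatives, of H2-Ab1 from 0.0123 to 0.250, of H2-DMb1 from 0.0119 to 0.252, of H2-Eb1 from 0.0182 to 0.260, of H2-DMa from 0.0205 to 0.252, of H2-Aa from 0.019 to 0.268 and of H2-K1 from 0.00982 to 0.260. Members called lower were 0 in every setting. The causes were not tested. No paired analysis was possible because the groups share no replicate number. With depth unknown, differences below 1 FPKM cannot be weighed against counting error.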
